A study of Mus musculus with 12 samples.

Results

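The transcripts uc008gor.2 and uc008gos.2 are 2 of the 63759 UCSC transcript identifiers counted in eyes of newborn mice (postnatal day 0.5), of which 42689 had a count in any library. They were picked by identifier because their ribosome footprints were lower in knockout eyes, so their footprint levels, and any ratio that holds them, are given as a description with no test. The mRNA libraries were not part of that choice and are tested. Footprints depend in part on mRNA, so the mRNA test is not fully independent of the choice. The groups were wild-type eyes (WT) and eyes labelled RNG140KO (KO), each profiled for ribosome footprints and for mRNA, with 3 libraries in each of the 4 groups and 12 in all. The labels give no allele, strain, sex, litter or pooling of animals for either genotype, and they name no treatment. They number the libraries 1 to 3 but do not tie a number to an animal. The p-values therefore reflect only how these libraries vary, and part of that may be technical.

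RNG140, the product of Caprin2, is an RNA-binding protein of the caprin family that is found in cytoplasmic RNA granules and is known for a role in the lens of the eye. Ribosome profiling sequences the stretches of mRNA that a translating ribosome shields from nuclease, and RNA-seq of the same tissue counts the mRNA itself. The footprint level of a transcript depends both on how much mRNA there is and on how many ribosomes each mRNA carries, and the ratio of footprints to mRNA, called translation efficiency, is the usual way to look at the latter. In whole eyes a lower level can mean fewer cells of a type that holds the transcript or less RNA per cell, and these cannot be told apart. The files and reference tables used here do not pair the identifiers with gene names, so the gene, its product, its position and its sequence are not given here, and neither the tissue's markers nor Caprin2 was analysed here.

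The deposited files list a length for each transcript, in a unit they do not state: 871 for uc008gor.2 and 867 for uc008gos.2, against a median of 582 over the 14131 features tested in mRNA. The pair behaved as one unit in counting. The counts were equal in 7 of the 12 libraries and never differed by more than 4, and they summed to 584 for uc008gor.2 and 582 for uc008gos.2. The share of uc008gor.2 in the pair's summed counts lay between 49.0% and 51.3% in the 12 libraries, and in mRNA the genotypes differed by less than the libraries did (50.4% in WT, 49.4% in KO, exact two-sided permutation p = 0.3). Transcripts covered by the same reads give counts as alike as these, so the 2 transcripts are not 2 pieces of evidence, and the values below are led by uc008gor.2.

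Library depth differed most among footprints. Footprint libraries held 327847, 847125 and 5966639 counts in WT libraries 1, 2 and 3 and between 1875021 and 5498069 in KO, and mRNA libraries held between 666464 and 1244104. The KO footprint libraries resembled each other closely, with Spearman correlations of log2 CPM (counts scaled to the library total) between 0.933 and 0.938 across features, whereas those of WT correlated at 0.777 to 0.882. Footprint library 1 of WT, the shallowest of the 12, was in the lowest of these correlations, and results that use it are also given without it. Regressed on log2 listed length, log2 CPM had a slope of 0.46, 0.24 and -0.05 in WT footprint libraries 1, 2 and 3 and lay between -0.04 and 0.16 in KO. In mRNA it was 0.77, 0.76 and 0.52 in WT libraries 1, 2 and 3 and 0.43 to 0.49 in KO.

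The mRNA of the pair fell in KO eyes. For uc008gor.2, WT libraries 1, 2 and 3 had 94.8, 119 and 65.9 CPM, from 118, 79 and 48 counts. The KO libraries had 35.2, 45.3 and 31.1 CPM, from 25, 36 and 24 counts. Every KO library lay below every WT library, with a gap from 45.3 to 65.9 CPM. The means were 93.1 ± 26.4 CPM in WT and 37.2 ± 7.32 in KO (SD, n = 3), a 2.50-fold difference in share of the library total. After TMM scaling, which sets the bulk of features to like levels across libraries, the log2 fold change was -1.02 (SE 0.27, edgeR quasi-likelihood adjusted p = 0.0145 over all features tested), or 2.02-fold.

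The values of uc008gos.2, whose counts are nearly the same, were close to these. It had 94.8, 113 and 65.9 CPM in WT and 36.7, 46.6 and 31.1 in KO, with means of 91.1 ± 23.6 and 38.1 ± 7.84 (SD, n = 3). The edgeR log2 fold change was -0.95 with an SE of 0.27 and an adjusted p of 0.0195. A single-value exact two-sided permutation test gave p = 0.1 for each transcript, the smallest that 3 against 3 libraries allow (0.133 after Benjamini-Hochberg adjustment over the 4 such tests made).

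**Figure D1:**
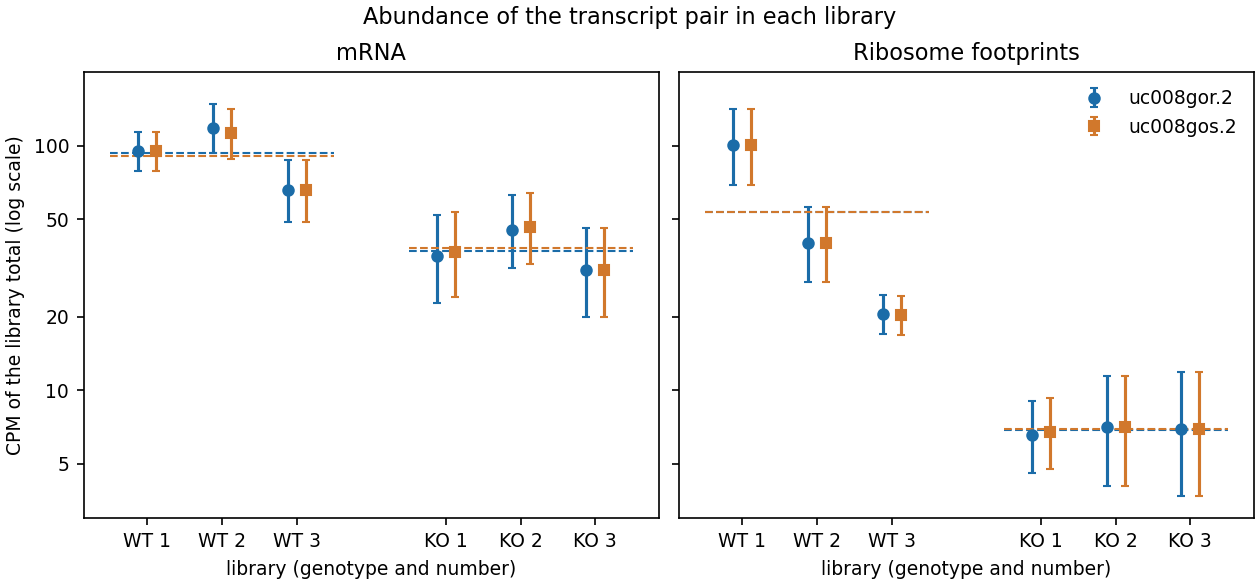
CPM of the library total on a log axis for uc008gor.2 (circles) and uc008gos.2 (squares) in each of the 12 libraries, mRNA on the left and ribosome footprints on the right; bars are exact 95% Poisson intervals of the count and cover counting error only, and dashed lines are group means. The KO libraries lie below the WT libraries in both assays, the 3 WT footprint libraries are spread from 20.4 to 101 CPM for uc008gor.2, and the 3 KO footprint libraries lie together at 6.55 to 7.06.

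Many features fell in mRNA beside the pair. Of the features tested, 849 were called lower in KO by the same test, or 6.01%, and 1295 were called higher, or 9.16%, 2144 in all. With the library total alone as the scale, which moved the median log2 fold change of all features from 0.02 to -0.25, 2063 were called lower and 892 higher. Leaving out WT library 1, 2 or 3 gave 1081, 1017 or 4378 calls, and leaving out KO library 1, 2 or 3 gave 1632, 925 or 652. All 3 KO libraries lay below all 3 WT libraries in 24.9% of features, so a gap of this kind was frequent. By size of the mRNA fall, uc008gor.2 ranked 677 and uc008gos.2 844 of 14131.

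Over the 1475 other features with a listed length from 781 to 958, within 10% of the pair's, the median mRNA log2 fold change was -0.13 (quartiles -0.51 and 0.25), and 105 were called lower (7.12%) and 51 higher (3.46%). Calls in this length band were thus more often lower than higher, whereas over all features tested they were more often higher. With the trend over listed length taken out of each library, the log2 fold change of uc008gor.2 was -0.89 (SE 0.25, edgeR adjusted p = 0.0143). It was -1.02 with the trend left in. Whether listed length has a part in the fall was not tested.

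The mRNA call depended on which libraries were kept. It was lost for both transcripts without WT mRNA library 2 (uc008gor.2 log2 fold change -0.86, edgeR adjusted p = 0.0897), when KO library 1 was left out (-0.97, adjusted p = 0.0573) and when KO library 3 was left out (-0.89, adjusted p = 0.109). With WT represented by mRNA library 3 alone, assumed to vary like the other libraries, it was -0.71 (SE 0.36, edgeR adjusted p = 0.343). WT mRNA libraries 1 and 2 had the steeper slopes on listed length and the higher levels of the pair. Whether the slopes had a part in these levels or in the lost calls was not tested.

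Footprints of the pair were lower in KO eyes, which is the property it was chosen for. For uc008gor.2 the WT libraries 1, 2 and 3 had 101, 40.1 and 20.4 CPM, from 33, 34 and 122 counts. The KO libraries had 6.55, 7.06 and 6.93 CPM, from 36, 16 and 13 counts. The KO libraries all lay below the lowest WT library. The means were 53.7 ± 41.8 CPM in WT and 6.85 ± 0.267 in KO (SD, n = 3), a 7.85-fold difference. For uc008gos.2 the values were 101, 40.1 and 20.3 CPM in WT and 6.73, 7.06 and 6.93 in KO. All 3 KO footprint libraries lay below all 3 WT footprint libraries in 7.65% of the 17236 features tested in footprints, and nothing is read from the pair's place among them, since the rule selected it.

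The spread of the footprint values within each genotype is given as a description. In KO, the SD of log2 CPM of uc008gor.2 was 0.06, and the 95% Poisson intervals of the 3 counts overlapped, from 3.69 to 11.9 CPM in the widest case. Each interval was wider than the range of the 3 values, 6.55 to 7.06 CPM. The small SD is therefore no measure of how closely KO eyes agree. In WT, the SD was 1.15, the highest library was 4.92 times the lowest, and the intervals were separate: 69.3 to 141 CPM in library 1, 27.8 to 56.1 in library 2 and 17.0 to 24.4 in library 3. In mRNA the SD of log2 CPM was 0.43 in WT and 0.28 in KO.

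The size of the footprint difference depended on which WT library was taken. The KO mean was 14.7 times lower than WT library 1, 5.86 times lower than library 2 and 2.99 times lower than library 3. Without WT library 1 the difference of means was 4.42-fold. The same order, 1 above 2 above 3, ran through the slopes on listed length of these libraries, and their total counts ran the other way. The part of either in the spread of the pair was not tested. TMM scaling narrowed the WT values of uc008gor.2 to 70.4, 39.3 and 28.5 CPM and gave 8.01, 6.49 and 6.45 in KO.

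On that scale the footprint log2 fold change of uc008gor.2 was -2.61 (SE 0.42) and that of uc008gos.2 was -2.59 (SE 0.42), where the median over all features tested was -0.04. It was -2.22 (SE 0.37) for uc008gor.2 without WT library 1 and -2.42 (SE 0.34) with the trend over listed length taken out. Over the 1469 other features of like listed length the median footprint log2 fold change was -0.13 (quartiles -0.67 and 0.40).

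**Figure D2:**
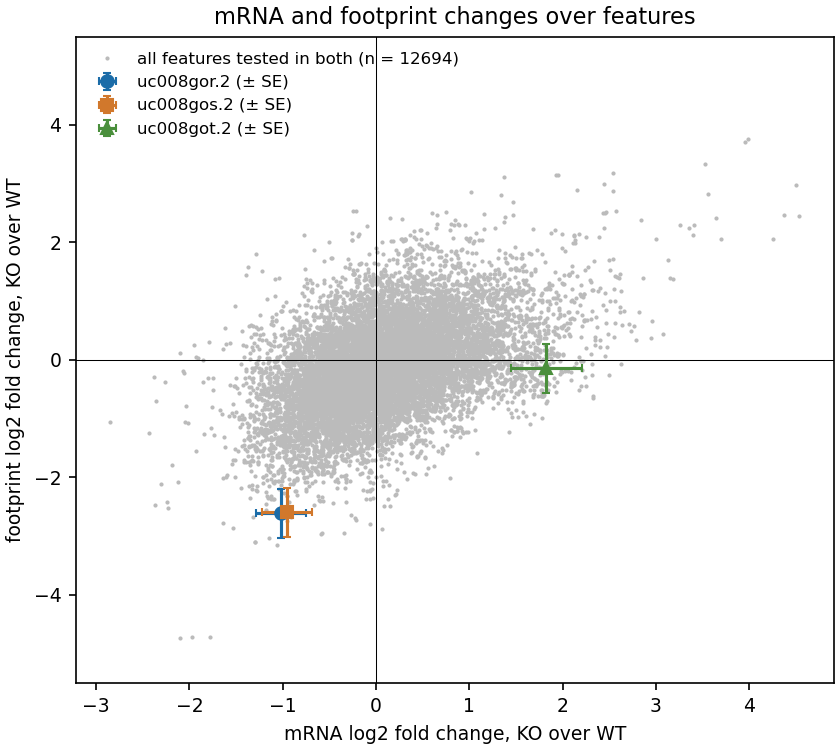
Footprint log2 fold change (vertical) against mRNA log2 fold change (horizontal), KO over WT, for each feature tested in both assays (grey points), with uc008gor.2, uc008gos.2 and the identifier neighbour uc008got.2 drawn with their standard errors. The pair lies at -1.02 and -0.95 in mRNA and at -2.61 and -2.59 in footprints, and uc008got.2 at 1.82 in mRNA and -0.15 in footprints.

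Among the 4 groups, uc008gor.2 was highest in WT mRNA (93.1 ± 26.4 CPM), then WT footprints (53.7 ± 41.8), KO mRNA (37.2 ± 7.32) and KO footprints (6.85 ± 0.267; SD, n = 3 each). CPM in the 2 assays are shares of different libraries, so this order compares shares and not molecules. WT mRNA and WT footprints overlapped, since footprint library 1 had 101 CPM, and WT footprints and KO mRNA overlapped too. KO mRNA and KO footprints did not overlap. By rank of CPM, which is not scaled for length, the pair was among the well-represented transcripts of WT eyes. Among the 32803 distinct features with a count in any library, those at 0 in the library included, uc008gor.2 exceeded 92.1% to 96.0% in WT mRNA libraries and 88.3% to 96.6% in WT footprint libraries. In KO it exceeded 80.7% to 88.8% in mRNA but 55.7% to 63.3% in footprints. With CPM divided by listed length, uc008gor.2 exceeded 84.3% to 93.3% of features with a listed length in WT mRNA and 76.9% to 91.6% in WT footprints. In KO that scale gave 65.0% to 77.3% in mRNA and 38.1% to 46.6% in footprints. The drop in rank was larger in footprints than in mRNA. The pair was chosen for its lower footprints in KO, so nothing is read from this.

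The ratio of footprints to mRNA was lower in KO than in WT when libraries with the same number were set together. Whether such libraries share a tissue sample is not stated in the labels. For uc008gor.2, WT numbers 1, 2 and 3 had ratios of 1.06, 0.339 and 0.310, and KO had 0.186, 0.156 and 0.223. WT number 1 stood far above the rest, while WT numbers 2 and 3 were close to each other and above all of KO. On the log2 scale the means were -1.05 ± 0.99 in WT and -2.42 ± 0.26 in KO (SD, n = 3), a difference of -1.37, and without WT number 1 the difference was -0.80. When every footprint library was set against every mRNA library of its genotype, the 9 ratios ran from 0.172 to 1.53 in WT and from 0.145 to 0.227 in KO. These ranges overlap, so the separation by number does not hold for every way of joining the libraries.

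The ratios of other features shifted between numbers too. Over the 4883 other features with at least 10 counts in every library, the median log2 ratio was -0.24, -0.93 and -1.42 in WT numbers 1, 2 and 3 and -1.22, -0.75 and -0.76 in KO. Taken relative to that median, uc008gor.2 lay at 0.32, -0.63 and -0.26 in WT and at -1.20, -1.93 and -1.41 in KO. The WT values lie on both sides of the typical well-counted feature, and the KO values lie below it in all 3 numbers. As the footprint side of the ratio chose the pair, these values are a description. They are given by number only, and other ways of joining the libraries were not tried on this scale. WT number 1 no longer stands far apart on this scale. A count of 10 is a larger share of a shallow library, so the filter on the other features was strictest in WT footprint library 1. The part of this filter in the medians was not tested.

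**Figure D3:**
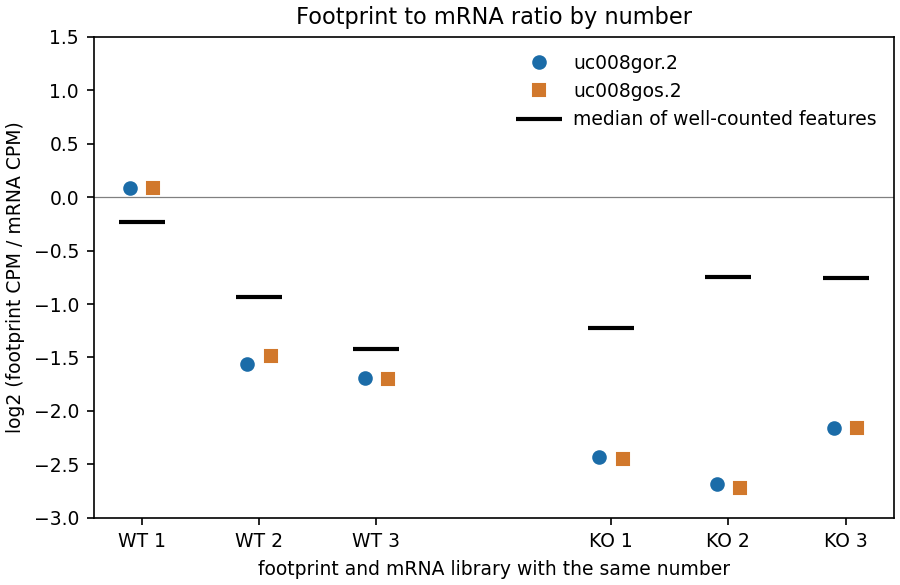
log2 of footprint CPM over mRNA CPM for uc008gor.2 (circles) and uc008gos.2 (squares), for footprint and mRNA libraries with the same number, with the median of the 4883 well-counted features as a black bar. For uc008gor.2, WT lies between -0.63 and 0.32 relative to the median, and KO between -1.93 and -1.20.

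In a model of all 12 libraries, the log2 change of the ratio (the assay by genotype interaction) was -1.36 (SE 0.50) for uc008gor.2 and -1.40 (SE 0.50) for uc008gos.2, against a median of -0.07 over the 25927 features fitted and 0.16 over features of like listed length. It was -1.04 (SE 0.47) for uc008gor.2 without WT footprint library 1. No p-value is given, since the footprint side of the ratio chose the pair.

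**Figure D4:**
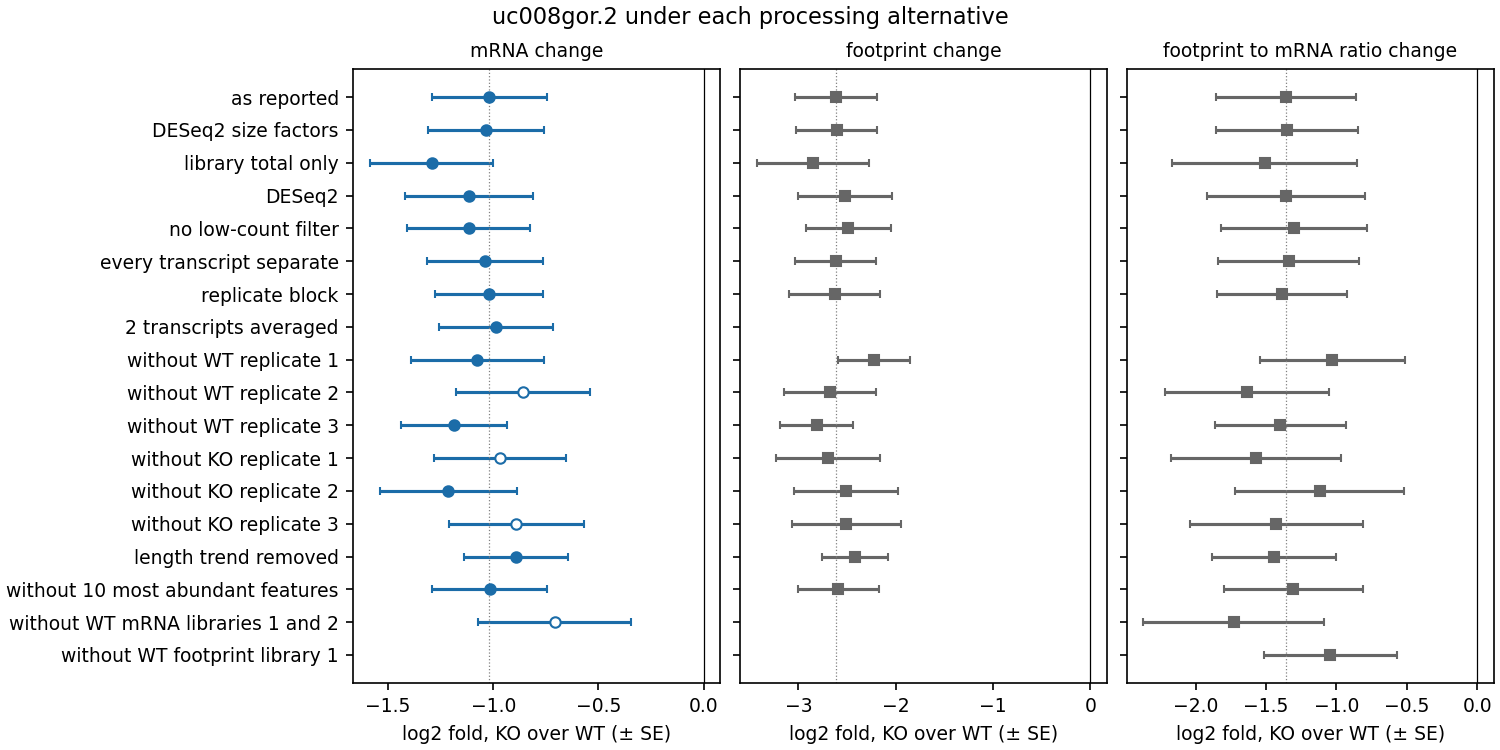
log2 fold change of uc008gor.2, KO over WT, with its standard error, in mRNA (left), footprints (middle) and their ratio (right) under each processing alternative; circles are tested values, filled where the adjusted p is under 0.05 and open where it is not, and grey squares are values given without a test. All values lie below 0, and the mRNA value is an open circle when WT replicate 2, KO replicate 1, KO replicate 3 or WT mRNA libraries 1 and 2 are left out.

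Of the 4 identifiers next to the pair in alphabetical order, 2 were in the files, both after it. Their order is that of the identifiers, and no genome position was used. uc008got.2, of listed length 173, had 125, 120 and 170 mRNA CPM in WT libraries 1, 2 and 3 and 190, 442 and 586 in KO. Its mRNA rose by 1.82 on the log2 scale (SE 0.38, edgeR adjusted p = 0.00323), where 9.16% of all features tested were called higher. With the trend over listed length taken out, the log2 fold change of uc008got.2 was 1.20 (SE 0.28, edgeR adjusted p = 0.00431). The call was lost with WT represented by mRNA library 3 alone (1.37, edgeR adjusted p = 0.0527). Its footprints were 61.0, 54.3 and 68.4 CPM in WT and 48.0, 68.4 and 59.7 in KO, which overlap. The ratio of uc008got.2 was lower in KO as well (log2 change -1.85, SE 0.63), but there the mRNA was higher at like footprints, whereas for the pair both were lower. Scaled per 1000 units of listed length, the mRNA level in WT was 799 ± 160 CPM for uc008got.2 and 107 ± 30.3 for uc008gor.2 (SD, n = 3). uc008gou.2, of listed length 542, had 0 or 1 count in every library.

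The feature whose log2 CPM followed the summed pair most closely over the 12 libraries was uc007env.1, with a Pearson correlation of 0.988 among 25908 candidates. Its listed length, 861, is close to that of the pair, though length was not used to find it. Its footprints were 244, 118 and 67.4 CPM in WT libraries 1, 2 and 3 and 28.9, 32.7 and 45.9 in KO, with the same order among WT libraries as in the pair. Its mRNA was 267, 296 and 213 CPM in WT and 128, 127 and 101 in KO. The footprint difference of means was smaller than for the pair, with 143 ± 91.0 CPM in WT against 35.8 ± 8.90 in KO (SD, n = 3). Without WT footprint library 1 the WT mean was 92.7 CPM, 2.59 times the KO mean, against 4.42 times for uc008gor.2. Features correlating over 0.95 with uc007env.1 were then passed over, so the second feature taken need not be second in rank. It was uc012anc.1, of listed length 219. This feature had a correlation of 0.977 but only 4 to 33 footprint counts and 6 to 15 mRNA counts per library. The 12 libraries form 4 groups, so likeness in group levels can raise such a correlation, and both features were picked for it. How many candidates came close was not counted.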

How the data were processed

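Ribosome footprints and mRNA were sequenced from eyes of WT and RNG140KO mice, 3 libraries of each. Per the labels' protocols, footprints were made by RNase I digestion and ribosome pelleting, and mRNA libraries with a stranded TruSeq kit. The submitters' processing notes name TopHat2 2.0.9, Bowtie2 2.3.4.2, CASAVA 1.8 and the mm10 build. How reads were counted, with which annotation, and how reads matching more than 1 transcript were handled is not given in the sources used here. As measurements the authors deposited raw counts per transcript, and a length per transcript in another, unstated unit.

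Transcripts with the same counts in all 12 libraries were kept once, leaving 32803 features. CPM were computed from the library total. Fits used edgeR 4.0.16 (limma 3.58.1, R 4.3.3): TMM scaling, the default low-count filter, quasi-likelihood F tests and Benjamini-Hochberg adjustment over all features, called at 0.05. Standard errors came from the F statistic. The ratio was an interaction over features with at least 10 counts in each assay. log2 CPM used a prior count of 2. Poisson intervals cover counting error only. Alternatives included DESeq2 1.42.0. On data simulated for 14131 features (13090 tested), the mRNA test recovered 92.3% of the 4-fold and 20.7% of the 2-fold changes put in. The simulated libraries did not differ in their trend over listed length, as the real ones did. Far fewer features were changed in them than were called in the real data, so the recovery there may differ. Named transcripts were the pair and its 2 nearest identifiers on each side. Of those neighbours, only uc008got.2 and uc008gou.2, both after the pair, were in the files. The 2 features with the highest correlation with the pair were also named. Left out of that choice were identifiers that start with uc008go and features with under 10 counts in an assay. A feature correlating over 0.95 with one taken was left out too. The members and lists were chosen with earlier results of these data known.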

Additional observations from a re-analysis of the deposited data

How the results depend on the processing

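In all alternatives run, the mRNA, footprint and ratio changes of both transcripts stayed below 0. The mRNA call held in 12 of 16 alternatives for each. With replicates left out in turn, the mRNA log2 fold change ran from -1.21 to -0.86 for uc008gor.2 and from -1.15 to -0.81 for uc008gos.2. Without WT mRNA libraries 1 and 2 it was -0.71 and -0.67. The count of mRNA calls (2144) ran from 652 to 4378 with replicates left out and was 331 without WT mRNA libraries 1 and 2, where fewer libraries were fitted. Why the calls were lost was not tested further. For uc008gor.2 the footprint log2 fold change ran from -2.85 to -2.22 and the ratio change from -1.73 to -1.03 over all alternatives. Removing the length trend, the 10 most abundant features, WT mRNA libraries 1 and 2 or WT footprint library 1 was chosen after seeing the data.

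No label states a pairing by number, and deviations of same-numbered WT and KO mRNA libraries correlated at -0.00201 to 0.107, those of footprint libraries at -0.324 to 0.111, and those of footprint with mRNA libraries at 0.0597 to 0.560 in WT and 0.0414 to 0.0961 in KO. With the replicate block, the mRNA log2 fold change was -1.02 for uc008gor.2 (edgeR adjusted p = 0.0116) and -0.96 for uc008gos.2 (0.0157), with 2121 calls, footprint changes were -2.63 and -2.61, and ratio changes -1.39 and -1.43. Counts of 13 to 37 in the KO footprint libraries limit precision there.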
